A study of Mus musculus with 2 samples.

Results

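Lysosomal genes were examined in the omentum, the apron of fat that hangs in the abdomen and holds lymphoid aggregates known as milky spots. The set held 33 genes that were picked by symbol, for what their products do, from the 24346 gene symbols measured by RNA-seq. The set was chosen with earlier results of these data known, as were the other lists below. It consisted of 10 cysteine cathepsins, 3 other lysosomal proteases, 7 glycosidases, 5 genes of lipid handling, 6 membrane proteins, the progranulin gene Grn and the transcription factor gene Tfeb. Entire omenta were taken 5 days after diphtheria toxin (DT) was given by the i.p. route to both groups, WT mice and Postn-DTR mice. Postn-DTR mice are heterozygotes on a C57BL/6 background in which a cassette for the diphtheria toxin receptor was put by CRISPR into the first coding exon of Postn, the periostin gene, so that DT kills cells that use the Postn promoter. Controls were littermates when this was feasible. The cells aimed at are Aldh1a2+ fibroblastic reticular cells (FRCs), but other mesenchymal cells use this promoter too. There was 1 library per genotype, so no difference given here has a replicate check and no test between genotypes was possible. The number of mice behind each library was not stated, and the age and sex of the mice were not given in the sources used here.

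Lysosomes are acidic organelles in which proteins, glycans and lipids that arrive by endocytosis, phagocytosis or autophagy are broken down. Most of their soluble enzymes are made as precursors in the secretory pathway and are sorted to the lysosome by a mannose 6-phosphate tag. The proton pump of the membrane, the V-ATPase, sets the low pH at which the hydrolases work. Many lysosomal genes carry near their start a short palindromic element, bound by the transcription factor Tfeb and its relatives, whose core is the sequence CACGTG. Macrophages, which digest dead cells and debris, are rich in lysosomes.

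This element was looked for in the promoters of the set, because it is known from many lysosomal genes. It was not used to pick the set, but for that reason a higher share than among all genes was to be foreseen. RefSeq promoter windows (build GRCm38.p6, 250 bases before to 50 bases after a gene's start) were found for 28 of the 33 genes. The other 5 were Ctsb, Npc1, Asah1, Ctsw and Ctsh. The letters searched, on both strands, were CACGTG, the longer forms TCACGTG and TCACGTGA, which contain it, and GAGGAAGT, a form of the site bound by the myeloid factor PU.1. The 7-letter form TCACGTG was present in 7 of the 28 genes (25%), against 3.77% of all 32851 windows of this length and 6.84% of the 9953 genes compared that have a window. The stretches just before the RefSeq starts of these 7 genes are shown for the position and number of copies of the element. By the GENCODE M21 gene positions, those of Ctsd, Ctsa and Lgmn lie inside the gene, and that of Mcoln1 does so in part. All are in lower case and 5′ to 3′ on the strand of the gene, with TCACGTG, its reverse complement CACGTGA or the full palindrome TCACGTGA in capitals.
Ctsd, chr7:142387894-142387951, minus strand: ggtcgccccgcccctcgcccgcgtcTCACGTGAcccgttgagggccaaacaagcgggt
Ctsa, chr2:164833735-164833772, plus strand: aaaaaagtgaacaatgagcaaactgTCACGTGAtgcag
Lgmn, chr12:102439111-102439167, minus strand: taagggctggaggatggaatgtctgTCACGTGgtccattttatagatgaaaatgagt
Glb1, chr9:114401004-114401060, plus strand: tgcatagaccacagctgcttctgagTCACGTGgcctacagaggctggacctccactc
Gaa, chr11:119267797-119267853, plus strand: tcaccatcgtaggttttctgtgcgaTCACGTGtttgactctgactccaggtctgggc
Lamp1, chr8:13159074-13159160, plus strand: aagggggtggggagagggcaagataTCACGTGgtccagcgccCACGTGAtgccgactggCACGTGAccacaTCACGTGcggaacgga
Mcoln1, chr8:3500422-3500505, plus strand: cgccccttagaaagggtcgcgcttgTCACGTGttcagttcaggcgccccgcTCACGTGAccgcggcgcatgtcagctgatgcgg

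The full palindrome TCACGTGA was present in the aspartic protease gene Ctsd, in the carboxypeptidase gene Ctsa and in Mcoln1, which encodes a lysosomal cation channel. These 3 genes were 10.7% of those with a window, against 0.974% of all windows and 2.17% of the genes compared. Lamp1, the gene of an abundant glycoprotein of the lysosomal membrane, held 4 copies of the 7-letter form within 87 bases. The windows of Ctsa and Ctsd held a further copy outside the stretch shown. The 6-letter core alone added Ctsf and Ctsl, giving 9 of 28 genes (32.1%) against 7.15% of all windows and 11.6% of the genes compared. The site GAGGAAGT was found in Ctsc, Ctss and Gusb (10.7%), against 3.20% of all windows and 3.98% of the genes compared. A match is a description of letters in these windows and not of binding, and a window without a match says only that the letters are not in it.

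The libraries were first described as a whole. FPKM counts fragments per kilobase of transcript and relative to all mapped fragments, so levels of different genes can be set side by side. The summed FPKM of all genes was 542190 for WT and 671882 for Postn-DTR. From values that lie on whole reads, the fragments behind the FPKM were estimated at 23400000 and 24200000, so that 1 read in a 2 kb transcript is worth 0.0239 and 0.0231 FPKM. The targeted gene Postn had 58.3 FPKM in WT and 16.2 in Postn-DTR. The WT library also held pancreatic acinar transcripts, with a summed FPKM of 12650 against 21.6 in Postn-DTR, and all 27 acinar genes compared were lower in Postn-DTR. The part of this tissue in the differences of single lysosomal genes was not tested. The fibroblast, adipocyte, mesothelial and endothelial marker lists had median changes of -0.31, -0.55, 0.30 and -0.06, and in bulk tissue fewer cells of a type and less RNA per cell cannot be told apart.

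All 33 lysosomal genes were transcribed in both libraries. Where a pair of levels is given for a gene or list, the first is that of WT and the second that of Postn-DTR. Levels in WT ran from an FPKM of 6.28 for Galc, which encodes the enzyme that cleaves galactosylceramide, to 1114 for Psap, which encodes the precursor of the saposins, small proteins that present lipids to the hydrolases. Psap and Ctsd ranked first and second in both libraries. The 10 most abundant members made up 74.5% of the summed FPKM of the set in WT. Most of the others had a different rank in each library, and among them Grn was at rank 6 in WT and rank 3 in Postn-DTR and Cd68 at rank 16 and rank 11, whereas Lamp1 was at rank 4 and rank 7, Hexa at rank 12 and rank 17 and Ctsc at rank 15 and rank 20.

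**Figure D1:**
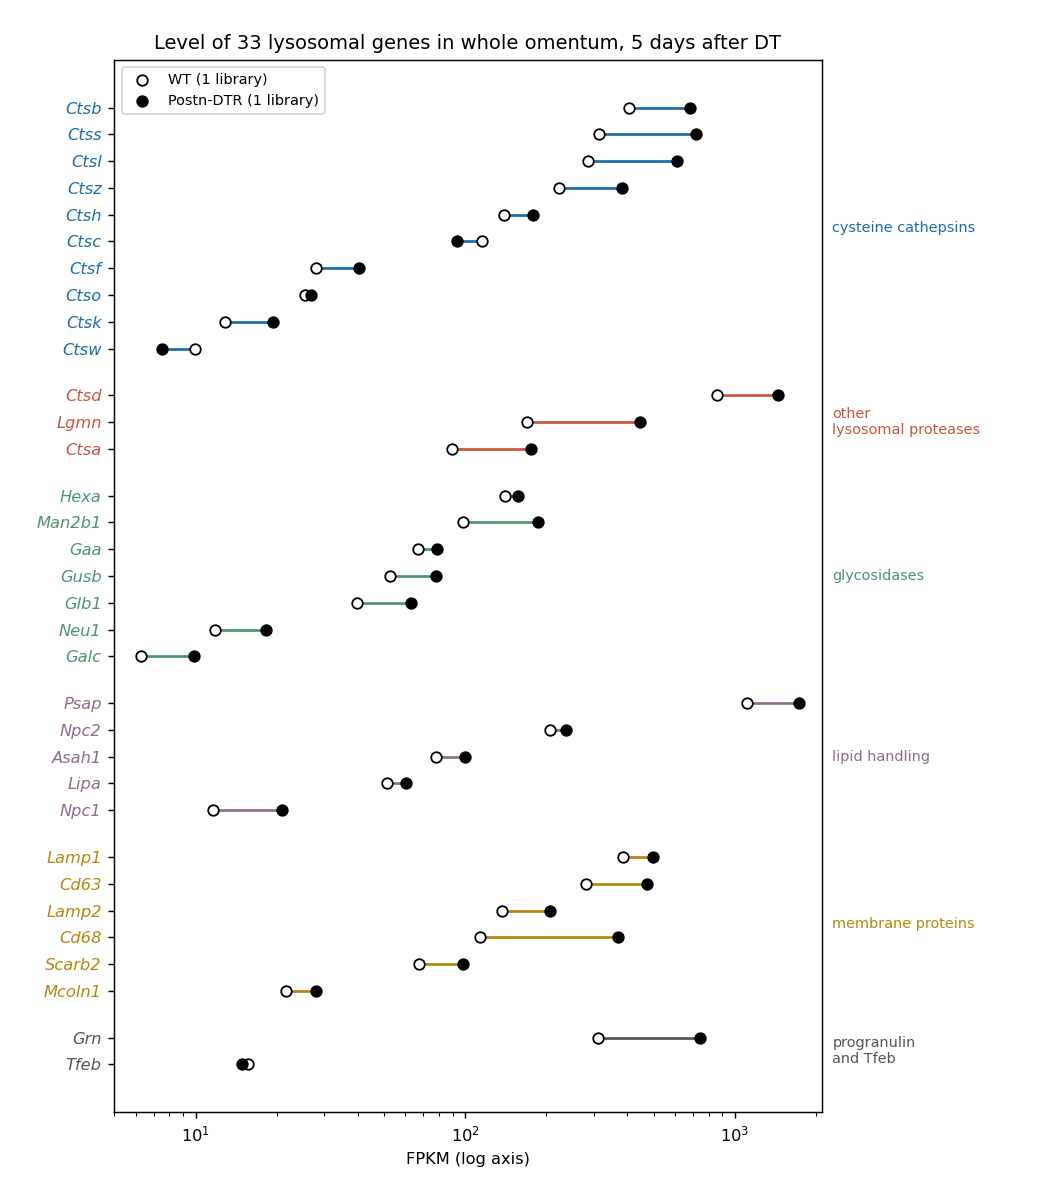
Level (FPKM, log axis) of each of the 33 lysosomal genes in the WT library (open circles) and the Postn-DTR library (filled circles), by class and in the order of the WT level within a class. The filled circle lies to the right of the open one for 30 genes and to the left for Ctsc, Ctsw and Tfeb.

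As a group the lysosomal genes were higher in Postn-DTR. Higher and lower, where no fold is named, mean a change above or below 0. The change of a gene is its log2(FPKM + 1) in Postn-DTR minus that in WT, a scale that compresses differences of weakly expressed genes. It was read for the 13127 genes whose mean FPKM reached 1. All 33 members passed this minimum, the lowest with a mean FPKM of 8.06. The change was above 0 for 30 of the 33 (90.9%), against 51.9% of all genes compared, and below 0 for Ctsc, Ctsw and Tfeb. This 51.9% is also the background for the counts of higher genes, on the deposited scale, in the classes and lists below. The median change of the set was 0.58, with quartiles of 0.35 and 0.77, and that of all genes was 0.02, with quartiles of -0.24 and 0.28. A change of at least 2-fold upward was seen for Cd68, Lgmn, Grn, Ctss and Ctsl, which are 5 genes or 15.2% of the set against 3.88% of all genes. No member was at least 2-fold lower, against 3.12% of all genes. Ctsl, with a change of 1.10, lay just inside this limit and Ctsa, with 0.96, just outside it. At a limit of 1.5-fold, 15 members (45.5%) were higher, against 9.86% of all genes, and 0 were lower, against 8.84%. The summed FPKM of the set was 5887 in WT and 9993 in Postn-DTR, which was 1.09% and 1.49% of the FPKM of each library.

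The direction of the smaller changes depended on how the libraries were scaled. With the acinar genes included, the FPKM total of Postn-DTR was already 1.24 times that of WT. When the 2 libraries were brought to the same total after removal of the acinar genes, the median change of all genes moved by -0.30, to -0.28. The share of all genes with a change above 0 was then 22.7%, in place of 51.9%. Under this scaling the median of the set was 0.24, 25 members were higher and 8 were lower, and 30 members lay above the median of all genes, the same number as on the deposited scale. Cd68 and Lgmn kept a change of at least 2-fold, beside 2.34% of all genes on this scale. No member was at least 2-fold lower, against 6% of all genes. Hexa, Gaa, Npc2, Lipa and Ctso, with changes between 0.07 and 0.23 on the deposited scale, turned below 0. Under median centring no member changed sign, and under 75th percentile scaling Ctso alone did.

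**Figure D2:**
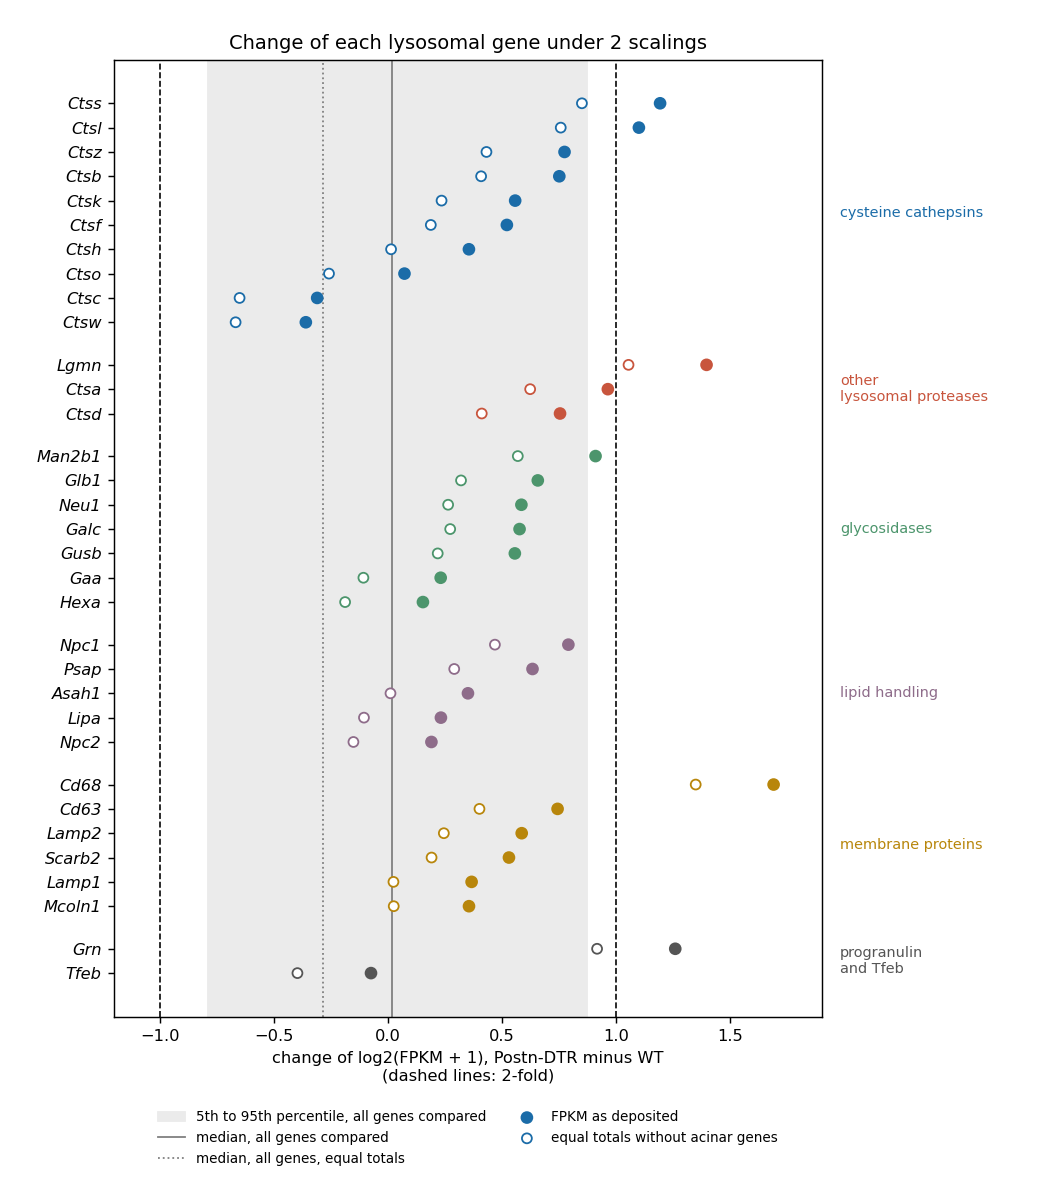
Change (log2(FPKM + 1) in Postn-DTR minus that in WT) of each lysosomal gene on the deposited scale (filled circles) and after removal of acinar genes and scaling to equal totals (open circles), with the 5th to 95th percentile of all genes compared on the deposited scale (grey band), their median on each scale (grey lines) and 2-fold (dashed lines). On the deposited scale 7 members lie above the band, from Man2b1 at 0.91 to Cd68 at 1.69, and at equal totals Ctso, Hexa, Gaa, Npc2 and Lipa lie below 0.

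Cysteine cathepsins, papain-like proteases that break down proteins in the endolysosomal system, were the largest class. Their summed FPKM was 1559 in WT and 2759 in Postn-DTR. Of the 10 genes 8 were higher, against 51.9% of all genes, and the median change was 0.54. The highest change was that of Ctss (ENSMUSG00000038642, chr3:95526786-95556403, plus strand, GRCm38), the gene of cathepsin S, which stays active at neutral pH and trims the invariant chain of MHC class II in antigen-presenting cells. Its FPKM was 312.7 in WT and 715.7 in Postn-DTR, a ratio of 2.29 and a change of 1.19, and 2.70% of all genes had a higher change. Ctsl (ENSMUSG00000021477, chr13:64359337-64370890, minus strand), the gene of the broadly expressed endopeptidase cathepsin L, had 284.9 and 611.5 FPKM, a ratio of 2.15 and a change of 1.10. Both were among the 5 genes at least 2-fold higher, and both stayed higher at equal totals, with changes of 0.85 and 0.76.

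Ctsb and Ctsz came next in this class. Ctsb, which encodes an enzyme that acts both as an endopeptidase and as a dipeptidase at the carboxyl end, had 406.1 FPKM in WT and 683.8 in Postn-DTR, which is a change of 0.75. It shares 774 exon bases with Fdft1 on the opposite strand, which was listed at 17.2 and 21.4, and whether strand was used in counting was not stated. Ctsz, the gene of a carboxypeptidase that removes single residues, had 223.4 and 382.5 FPKM, a change of 0.77. These 4 genes and Ctsh, an aminopeptidase gene with 139.5 and 178.6 FPKM, were the most abundant of the class in both libraries. The change of Ctsh was 0.35 on the deposited scale and 0.01 at equal totals.

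The remaining higher members of the class were less abundant. Ctsk, the gene of the collagen-degrading cathepsin of osteoclasts, lies next to Ctss on the same strand (chr3:95499256-95509362) and had 12.8 FPKM in WT and 19.3 in Postn-DTR. Its change was 0.56, less than that of its neighbour, and the ratio of Ctss to Ctsk FPKM was 24.4 in WT and 37.0 in Postn-DTR. Ctsf, a widely expressed cathepsin gene, had 27.9 and 40.5 FPKM, a change of 0.52. Ctso had 25.6 and 26.9 FPKM, a change of 0.07 that turned to -0.26 at equal totals. The ratio of Ctso FPKM had a 95% exact binomial interval, from estimated reads, of 0.990 to 1.12 on the deposited scale, on which no difference was detectable at this depth. Such intervals cover counting error only, not the spread between mice, and rest on annotated transcript lengths.

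Ctsc and Ctsw, cathepsins known from granule-bearing leukocytes, were lower in Postn-DTR. Ctsc (chr7:88278085-88310888, plus strand) encodes dipeptidyl peptidase I, which activates the serine proteases of neutrophil, mast cell and cytotoxic granules. Its FPKM was 116 in WT and 93.2 in Postn-DTR, a ratio of 0.804 and a change of -0.31, and 20.3% of all genes had a lower change. Ctsw (chr19:5465043-5468507, minus strand), which is made mainly by NK cells and cytotoxic T cells, had 9.96 and 7.53 FPKM, a ratio of 0.756 and a change of -0.36. Ctsw rested on the fewest estimated reads of the set, 229 and 179, and its ratio had a counting interval of 0.619 to 0.924. Both genes stayed lower under every alternative in which they were compared, which for Ctsw leaves out the minimum FPKM of 10. None of these alternatives could have made them higher, since each keeps the sign or lowers every change. Their changes at equal totals were -0.65 and -0.67. Measured from the median of all genes on that scale, they were -0.37 and -0.39.

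Markers of the cells known for these 2 cathepsins moved as follows. All 6 NK cell markers compared were lower, none of the list was at 0, and their summed FPKM was 28.0 in WT and 19.2 in Postn-DTR. The first 3 of that list, Ncr1, Klrb1c and Gzma, had an FPKM of 4.08, 4.51 and 10.9 in WT and of 2.37, 3.50 and 8.78 in Postn-DTR. All 7 T cell markers were lower, with a summed FPKM of 81.5 and 36.2, none at 0, and Cd3e, Cd3d and Cd3g at 15.6, 10.6 and 18.7 in WT against 6.82, 5.00 and 10.5 in Postn-DTR. Of 10 neutrophil markers 6 were higher and 4 lower, none at 0, with a summed FPKM of 438.4 and 712.1. The lower 4, named after their values were seen, were Ngp, Camp, Mpo and Elane, which are granule genes, with changes from -1.78 to -1.27. Not all granule genes of the list were lower. Mmp8, also named after its values were seen, had 1.32 and 6.82 FPKM, a change of 1.76. Among the higher 6, Cxcr2 had 0.514 and 4.03 FPKM, S100a8 169.7 and 338.6, and S100a9 156.6 and 249.3. The part of these cells in the values of Ctsc and Ctsw was not tested.

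The make-up of the cysteine cathepsin transcripts, which does not depend on how the libraries are scaled to each other, differed between the libraries. Ctsb was the most abundant in WT, with 26.1% of the summed FPKM of the class, and had 24.8% in Postn-DTR. Ctss had 20.1% in WT and 25.9% in Postn-DTR, where it was the most abundant, and the ratio of Ctss to Ctsb FPKM was 0.770 and 1.05. Ctsl had 18.3% in WT and 22.2% in Postn-DTR, while Ctsz had 14.3% and 13.9%. Ctsc held 7.43% of the class in WT and 3.38% in Postn-DTR, the largest loss of share. The 5 most abundant genes together made up 87.7% and 93.2% of the class.

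**Figure D3:**
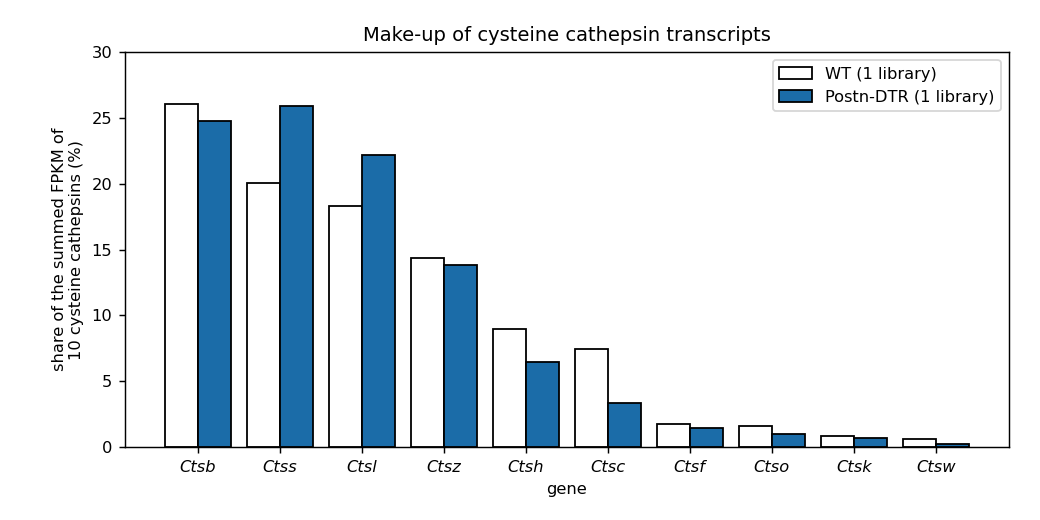
Share of each cysteine cathepsin gene in the summed FPKM of the 10 (%), in the WT library (open bars) and the Postn-DTR library (filled bars), with genes in the order of the WT share. Ctss and Ctsl take a larger share in Postn-DTR (25.9% and 22.2%) than in WT (20.1% and 18.3%), and Ctsc a smaller one (3.38% against 7.43%).

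The 3 lysosomal proteases outside the cysteine cathepsins were all higher, with a median change of 0.96. Lgmn (ENSMUSG00000021190, chr12:102394084-102439813, minus strand) encodes legumain, an asparaginyl endopeptidase that also trims several cathepsins to their mature forms. Its FPKM was 169.0 in WT and 446.4 in Postn-DTR, a ratio of 2.64 and a change of 1.40, and 1.99% of all genes had a higher change. It remained at least 2-fold higher at equal totals, with a change of 1.05. Ctsd, the gene of the main aspartic protease of lysosomes, had 858.5 and 1448 FPKM, a ratio of 1.69 and a change of 0.75. Ctsa, whose product is a serine carboxypeptidase and protects the sialidase and the β-galactosidase from degradation, had 89.3 and 175.0 FPKM, a change of 0.96. Ctsa shares 495 exon bases with Pltp on the opposite strand, which was more abundant than Ctsa and was also higher in Postn-DTR, with 298.4 and 459.7 FPKM, so the value of Ctsa is uncertain to that extent. Shorter overlaps, of 9 to 255 exon bases, join Ctsw, Ctsz, Grn, Lamp1 and Hexa to a gene on the opposite strand, and Glb1 shares 165 exon bases with Tmppe on its own strand, which had 5.53 and 7.68 FPKM.

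All 7 glycosidases had a change above 0 on the deposited scale, and 5 of them at equal totals, against 51.9% and 22.7% of all genes. Their medians were 0.58 and 0.26, and their summed FPKM was 416.9 for WT and 590.5 for Postn-DTR. Man2b1, the gene of the α-mannosidase that trims N-glycans, was the highest, with 98.5 and 185.9 FPKM and a change of 0.91. The partners of Ctsa in its enzyme complex followed. Glb1, the β-galactosidase gene, had 39.7 and 63.2 FPKM and a change of 0.66, and Neu1, the sialidase gene, had 11.8 and 18.2 FPKM and a change of 0.58. All 3 genes of this complex were thus higher in Postn-DTR, and they remained so at equal totals, with changes of 0.62, 0.32 and 0.26.

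Galc had 6.28 FPKM in WT and 9.85 in Postn-DTR, which is a change of 0.58. Gusb, the β-glucuronidase gene, had 52.8 and 78.0 FPKM, a change of 0.56. These correspond to ratios of 1.57 and 1.48. Gaa, which encodes the enzyme that breaks down glycogen in lysosomes, had 66.7 and 78.5 FPKM, and its change of 0.23 turned to -0.11 at equal totals. Hexa, the gene of the α subunit of β-hexosaminidase, had 141.1 and 156.9 FPKM, and its change of 0.15 turned to -0.19 at equal totals.

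The 5 genes of lipid handling had the lowest median change of the 6 classes, 0.35 on the deposited scale, and a median of 0.01 at equal totals. Npc1 encodes the membrane protein through which cholesterol leaves the lysosome, and Npc2 the soluble protein that hands cholesterol to it. Npc1 had 11.7 FPKM in WT and 20.9 in Postn-DTR, which is a change of 0.79. Npc2 was far more abundant, with 206.6 and 235.8 FPKM, and its change of 0.19 turned to -0.15 at equal totals. The genes of this pair therefore moved unequally. Psap, the most abundant gene of the set, had 1114 and 1728 FPKM and a change of 0.63. Asah1, the acid ceramidase gene, had 77.9 and 99.6 FPKM and changes of 0.35 on the deposited scale and 0.01 at equal totals. Lipa, the gene of the acid lipase that hydrolyses cholesteryl esters and triglycerides, had 51.1 and 60.2 FPKM, and its change of 0.23 turned to -0.11 at equal totals.

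Among the 6 membrane proteins, Cd68 stood apart from the others. Cd68 (ENSMUSG00000018774, chr11:69664213-69666153, minus strand) encodes a heavily glycosylated relative of the LAMP proteins that is typical of macrophages and other mononuclear phagocytes. Its FPKM was 113.8 in WT and 369.4 in Postn-DTR, a ratio of 3.25 with a counting interval of 3.10 to 3.40. The change of 1.69 was the highest of the set, 1.34% of all genes had a higher one, and it was 1.35 at equal totals. Cd63, a tetraspanin gene of late endosomes and secretory granules, had 281.3 and 471.4 FPKM, a change of 0.74. The 2 LAMP genes, which encode the main glycoproteins of the lysosomal membrane in nearly all cells, moved less. Lamp1 had 385.6 and 497.2 FPKM, a change of 0.37, and Lamp2 had 136.9 and 205.9 FPKM, a change of 0.59. The ratio of Cd68 to Lamp1 FPKM, a comparison within each library, was 0.295 in WT and 0.743 in Postn-DTR.

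Scarb2, which encodes the receptor that carries glucocerebrosidase to the lysosome, had 67.6 FPKM in WT and 98.1 in Postn-DTR, which is a change of 0.53. Mcoln1, whose channel releases calcium from the lysosome, had 21.6 and 27.9 FPKM, a change of 0.35. At equal totals the 6 genes of this class were all still above 0, against 22.7% of all genes, but Lamp1 and Mcoln1 were at 0.02.

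Grn and Tfeb behaved differently from each other. Grn (ENSMUSG00000034708, chr11:102430315-102437048, plus strand) encodes progranulin, a secreted protein that is taken up and cleaved to granulins in the lysosome. Its FPKM was 310.2 in WT and 743.6 in Postn-DTR, a ratio of 2.40 and a change of 1.26, and 2.41% of all genes had a higher change. Tfeb, the gene of the factor that drives many lysosomal genes, had 15.7 and 14.9 FPKM, a change of -0.08. The ratio of Tfeb FPKM was 0.946 with a counting interval of 0.855 to 1.05 on the deposited scale, on which no difference in its mRNA was detectable at this depth. At equal totals the changes of Grn and Tfeb were 0.92 and -0.40. An mRNA level does not show how much of a factor is in the nucleus.

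The promoter element shown above was set beside the changes. The 7 genes with TCACGTG had changes from 0.23 for Gaa to 1.40 for Lgmn, with a median of 0.66, and the 21 genes with a window but without these letters had a median of 0.58. The genes with the element thus spread over most of the range of the set. Of the 5 genes that were at least 2-fold higher, Lgmn held the 7-letter form and Ctsl the 6-letter core alone, while the windows of Cd68, Grn and Ctss held neither. The 3 genes with GAGGAAGT included both the highest and a negative change of the cysteine cathepsins with a window, 1.19 for Ctss and -0.31 for Ctsc.

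Lysosomal genes outside the set were compared in 7 lists, to see whether the organelle's other parts moved alike. The 18 subunit and accessory genes of the V-ATPase all had a change above 0 on the deposited scale, against 51.9% of all genes. At equal totals 11 of them did, against 22.7% of all genes. Their medians were 0.45 and 0.12, and their summed FPKM was 1265 for WT and 1715 for Postn-DTR. The lowest was Atp6v0a2 at 0.05. The highest was Atp6v0d2, the gene of a subunit known from osteoclasts and macrophages, with 0.746 and 4.58 FPKM and a change of 1.68.

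Further soluble hydrolases did not move as the set did. Of 37 genes 22 were higher and 15 lower, against 51.9% higher among all genes, so this count lay near the background. The median change was 0.11, and the summed FPKM was 1441 in WT and 1529 in Postn-DTR. The lowest was Plbd1, which encodes a phospholipase B-like protein, with 87.9 and 31.5 FPKM and a change of -1.45. The highest was Creg1, which encodes a small glycoprotein of the endolysosomal system, with 46.7 and 88.0 FPKM and a change of 0.90. At equal totals the median of this list turned to -0.20, with 10 genes higher and 27 lower, beside a median of -0.28 and 22.7% higher for all genes on that scale, which is also the background for the counts at equal totals of the other lists. Of 26 further membrane proteins 18 were higher and 8 lower, with a median of 0.31 that turned to -0.02 at equal totals, where 13 were higher and 13 lower. Gpnmb, a transmembrane glycoprotein gene of phagocytes and pigment cells, had 5.60 and 44.2 FPKM, a ratio of 7.90 and a change of 2.78. Slc11a1, the gene of a metal transporter of phagosomes, was the other at least 2-fold higher, with 32.0 and 70.2 FPKM, and was named after its values were seen. The lowest of this list was Mfsd8, a transporter-family gene, at -0.57.

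The machinery of mannose 6-phosphate sorting was not higher in Postn-DTR. Of 6 genes 5 were lower, the median change was -0.13, and at equal totals all 6 were lower with a median of -0.46. Sort1, which encodes the alternative sorting receptor sortilin, had 33.6 and 26.2 FPKM and a change of -0.35. Gnptg, the gene of a subunit of the enzyme that makes the tag, had 26.3 and 31.0 FPKM and a change of 0.23, which turned to -0.10 at equal totals. Of 16 relatives of Tfeb and genes of lysosomal nutrient sensing compared, 13 were higher and 3 lower, with a median of 0.31 that was 0.00 at equal totals, where 8 were higher. Tfec, a relative of Tfeb found mainly in myeloid cells, was the highest, with 2.23 and 5.31 FPKM and a change of 0.97, and Lamtor2 the lowest at -0.14. Of 15 autophagy genes 13 were higher, with a median of 0.31 that turned to -0.01 at equal totals, where 6 were higher. Map1lc3b, the gene of the main marker protein of autophagosomes, was the highest, with 137.3 and 279.0 FPKM and a change of 1.02, and Atg12 the lowest at -0.10.

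Cathepsin inhibitors were the last list. Of 6 genes compared 5 were higher, with a median change of 1.30, or 1.07 at equal totals. Of these, Stfa2, Stfa2l1 and Stfa3 were listed at 0 in WT and passed the minimum only through Postn-DTR, so they had to be higher. The count and the median are therefore no evidence of a difference. The median was 0.67 with a pseudocount of 5 and 0.57 at a minimum FPKM of 10, where 2 genes were compared. Cst3, the gene of the secreted inhibitor cystatin C, was about as abundant as Psap, with 1103 FPKM in WT and 1460 in Postn-DTR and a change of 0.40. Cstb, the gene of the cytosolic inhibitor cystatin B, had 144.0 and 241.9 FPKM, a change of 0.74. The summed FPKM of Cst3 and Cstb was 0.800 times that of the 10 cysteine cathepsins in WT and 0.617 times in Postn-DTR. This sum, most of it Cst3, thus differed by a smaller factor than the sum of the proteases. The change of Cstb alone lay above the median of the cysteine cathepsins, 0.54. Cst7, the gene of a lysosomal cystatin of cytotoxic and myeloid cells, was the lowest at -0.27. Apart from Stfa2l1 and Cst7, the inhibitors were named after their values were seen. The mouse stefin genes Stfa1, Stfa2, Stfa2l1 and Stfa3 were all listed at 0 in WT, whereas Postn-DTR had 1.15, 2.63, 13.7 and 3.36 FPKM. These are near-identical copies between which reads can be split, so their single values are uncertain.

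**Figure D4:**
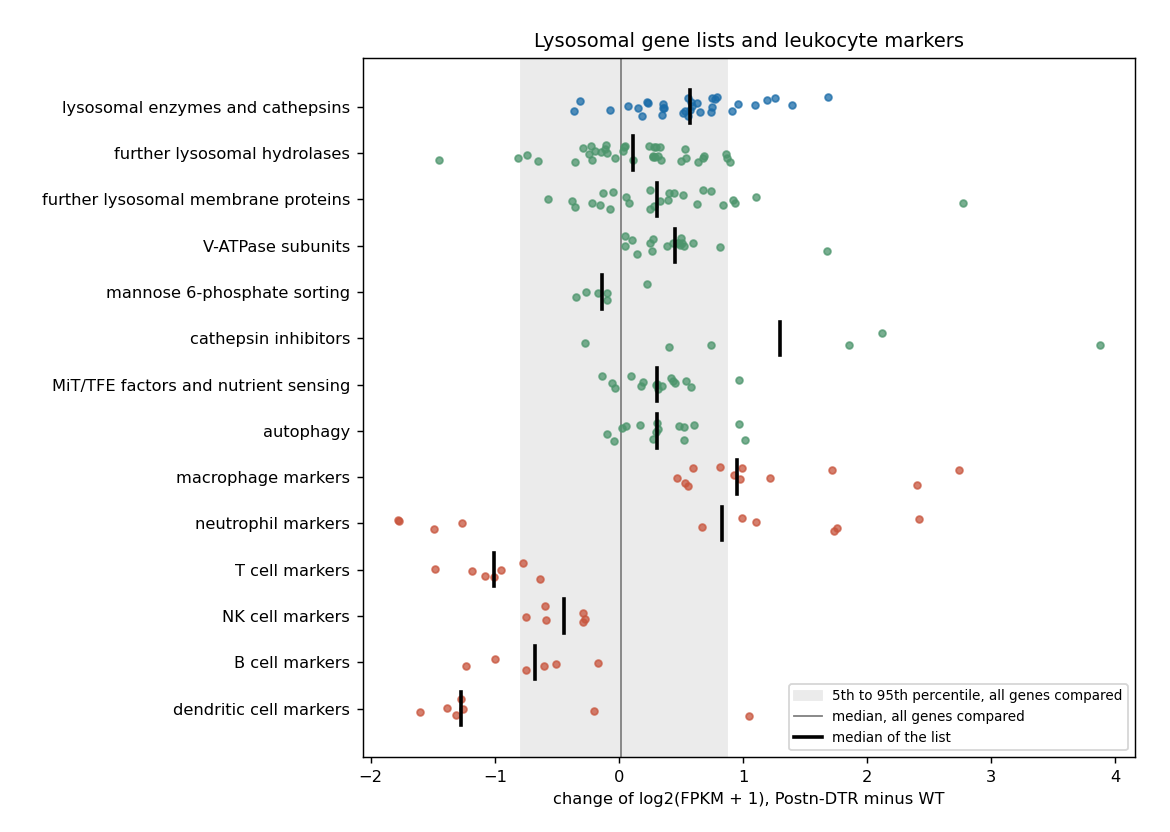
Change (log2(FPKM + 1) in Postn-DTR minus that in WT) on the deposited scale of each gene (points) in the lysosomal set, in 7 lists of other lysosomal genes and in 6 leukocyte marker lists, with the median of each list (black bars), the median of all genes compared (grey line) and their 5th to 95th percentile (grey band). The 3 highest inhibitor points are stefin genes listed at 0 in WT, which passed the minimum only through Postn-DTR. At equal totals the medians of further hydrolases, further membrane proteins and autophagy genes turn below 0, but lie above the median of all genes there, -0.28.

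Macrophage markers were higher together with the lysosomal genes. All 12 were higher in Postn-DTR and none was at 0, with a median change of 0.95, or 0.62 at equal totals, where all 12 stayed higher. Their summed FPKM was 4982 in WT and 8632 in Postn-DTR, a ratio of 1.73, beside 1.70 for the lysosomal set. Both sums are set mainly by their most abundant genes. The first 3 of the list were Adgre1, which encodes F4/80, at 41.1 and 137.6, Csf1r at 158.3 and 219.1, and Itgam, which encodes CD11b, at 46.8 and 251.9. The highest of the list was Cd14 with a change of 2.74. The ratio of Cd68 to Adgre1 FPKM was 2.77 in WT and 2.68 in Postn-DTR. This holds for that pair only, since the ratios of Postn-DTR to WT within the macrophage list ran from 1.38 for Csf1r to 6.84 for Cd14. The other leukocyte lists moved the other way or in both directions. All 6 B cell markers were lower, with a median of -0.68, a summed FPKM of 485.6 and 345.8, and Ms4a1 and Cd79a at 56.8 and 190.9 in WT against 23.6 and 169.6 in Postn-DTR. Of 7 dendritic cell markers 6 were lower, with a median of -1.27 and Flt3, Zbtb46 and Xcr1 at 6.56, 5.78 and 2.77 in WT against 1.49, 4.90 and 0.517 in Postn-DTR. The exception, Clec10a, which macrophages also express, had a change of 1.05 and brought the sum of that list from 119.1 to 166.8. Cell counts in the paper, also made 5 days after DT, found macrophage numbers unaltered in omenta of Postn-DTR mice. By those counts leukocytes in total were fewer, as were T cells and conventional B cells. Whether the counted mice were those behind these libraries was not stated. The part of a different number of macrophages, or of a different share of them among the cells, in the values of the lysosomal genes was not tested. In bulk RNA neither can be told apart from a different lysosomal content per cell.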

How the data were processed

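RNA-seq was performed on whole omentum, with 1 library from WT and 1 from Postn-DTR mice, grouped by the genotype label. Per the labels, total RNA came from a miRNeasy extraction and TruSeq stranded mRNA preparation was used. The paper's RNA-seq methods, which describe sorted cells, instead name RNeasy Micro extraction and NEBNext Ultra preparation. The labels were followed here. The authors deposited FPKM, 1 value per gene symbol and library. The submitters' processing notes name TopHat2 2.1.1, Bowtie2 2.2.8, SAMtools 0.1.18, Cuffdiff 2.2.1 and mm10. Their settings, and whether strand was used in counting, are not given in the sources used here.

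Changes were computed as log2(FPKM + 1), Postn-DTR minus WT, for genes whose mean FPKM reached 1, and read at 2-fold. Counts of higher or lower genes with no fold named are of changes above or below 0. A ratio given for 1 gene was formed from its deposited FPKM. With 1 library per genotype there was no test and no p-value. Depth was estimated from values under which whole reads can be told apart. With transcript lengths shortened by 210 bp, 80.2% of these low values in WT and 80.0% in Postn-DTR lay within 0.1 of a whole read. The estimate is approximate, since it rests on annotated lengths. Counting intervals for ratios are exact Clopper-Pearson intervals (95%). Positions are from GENCODE M21 (GRCm38), in which 23310 of 24346 symbols (95.7%) and all 33 lysosomal genes had a match. Promoter windows are from RefSeq.

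The 33 genes and the other lists, 7 of lysosomal genes and 11 of cell type markers, were chosen with earlier results of these data known. Named were all 33 genes, the highest and lowest member of each other list, Postn and, of cell marker lists, the first 3 as written, given here for leukocytes. Of the B cell markers 1 is not reported by name here. Genes outside this rule are said to have been named after their values were seen, apart from those given because they overlap a lysosomal gene. Of the marker lists, Ly6g, Trac and 1 acinar gene were not analysed here. The 8 alternatives were other pseudocounts, other minimums, other scalings and another threshold. Calculations were made in Python 3.11.15 with pandas 2.3.3, numpy 2.4.6, scipy 1.17.1 and matplotlib 3.10.9, and the code was tested on simulated data.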

Additional observations from a re-analysis of the deposited data

How the results depend on the processing

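The median change of the 33 lysosomal genes, 0.58, was 0.59 and 0.50 with pseudocounts of 0.1 and 5, 0.56 with median centring, 0.51 with 75th percentile scaling and 0.24 at equal totals without acinar genes. The count of members at least 2-fold higher, 5, was 2 at equal totals and 15 at a 1.5-fold threshold, and 5 under the other 6 alternatives. The share of all genes was 3.88% in the main setting, 2.34% at equal totals, 9.86% at 1.5-fold and from 2.16% to 4.89% under the other 6. The count lower was 0 under all 8, where the share of all genes ran from 1.28% with a pseudocount of 5 to 8.84% at 1.5-fold. Of the 33 changes, 28 kept their sign under each of the 7 alternatives in which the gene was compared, and Ctsw and Galc were not compared at a minimum FPKM of 10. For the lower genes Ctsc, Ctsw and Tfeb this was fixed in advance, since no alternative could turn a change below 0 to one above 0. The change of Ctso turned to -0.0029 at the 75th percentile scaling and to -0.26 at equal totals, where Hexa turned to -0.19, Gaa to -0.11, Npc2 to -0.15 and Lipa to -0.11. Also at equal totals, the median of further hydrolases turned to -0.20, that of further membrane proteins to -0.016 and that of autophagy genes to -0.012. The median of all genes on that scale was -0.28, below each of these. Equal totals by construction lowers every change, less so for weakly expressed genes.

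No paired analysis was possible because there was 1 library per genotype, and for the same reason no replicate was left out. Differences between single mice, pooling, sex and age cannot be told apart from the genotype here. On the deposited scale the counting interval of the FPKM ratio includes 1 for 2 members, Ctso and Tfeb. Intervals were not computed on the other scales.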

Other observations

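The files list 12 further symbols that begin with Cts. Of these, Ctse, the gene of the aspartic protease cathepsin E, had 2.30 FPKM in WT and 4.28 in Postn-DTR. Ctsg, the gene of the neutrophil serine protease cathepsin G, had 1.66 and 0.519 FPKM. It was lower together with the granule genes Mpo, at 3.84 and 0.726, and Elane, at 5.86 and 1.85. The granule gene Mmp8 was higher, at 1.32 and 6.82, and Retnlg, a marker of mature neutrophils, was at 12.8 and 72.6. The other 10 symbols, most of them known from placenta, were at or near 0 in both libraries. These genes were named after their values were seen.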
